A study of Mus musculus with 5 samples.

Results

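The p53 pathway genes described here are 32 genes chosen by name: the gene for the transcription factor p53 (Trp53), its regulators, and genes that p53 is known to switch on. All 32 were found among the 30478 genes of the deposited table, and 31 had enough reads to test. Expression was measured by strand-specific mRNA sequencing of mouse macrophages from the peritoneal cavity, where these phagocytes patrol the abdomen, sorted by flow cytometry. There were 2 libraries from C57BL/6 mice that were Samhd1 del/del and also cGAS-GFP ki/ki (called mutant here), that is, with a homozygous deletion of Samhd1 and a homozygous knock-in of cGAS-GFP, and 8-week females were the source of both. There were 3 wild-type (wt) C57BL/6 libraries, with wt 1 from a 13-week male, wt 2 from a 13-week female and wt 3 from a 9-week female. SAMHD1 hydrolyses dNTPs and limits interferon responses, cGAS is a sensor of cytosolic DNA, and the series title places the comparison in the question of how loss of SAMHD1 activates the RNA sensor MDA5. Both alleles occur together in the mutant libraries, and the mutant mice were younger than all wt mice, so neither an allele nor age can be told apart from the other differences between the groups.

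p53 is held at a low level by the ubiquitin ligase MDM2 and its partner MDM4. When DNA is damaged, checkpoint kinases release p53 from them, and p53 then binds paired half-sites in DNA and raises genes of cell cycle arrest, DNA repair, antioxidant metabolism and apoptosis, along with Mdm2 itself as feedback. SAMHD1-deficient cells are studied for disturbed nucleotide pools and DNA replication, which is a setting in which this pathway can be engaged. Many targets of p53 also answer to other factors, such as ATF4 in amino acid stress and the immediate early factors in growth and handling stimuli, so transcript levels do not report p53 activity by themselves.

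Libraries held 28517346 and 27282354 reads recovered from the deposited values in mutants 1 and 2, and 33119434, 30817815 and 30026622 in wt 1 to 3. Samhd1 read 1279 and 1431 normalized counts (reads of a gene divided by the size factor of its library) in mutant 1 and mutant 2, versus 17824, 16777 and 18274 in wt 1 to 3. Cgas read 184.0 and 85.1 in the mutants, versus 974.1, 1211 and 967.7 in wt, and the labels do not say how reads of the knock-in allele were counted. Cell type markers differed in part between the groups. Of 11 macrophage markers, Lyz2 (log2 1.58) and Mertk (1.13) were higher in the mutants and Fcgr1 (-1.52) lower, while the other 8, among them Adgre1, Csf1r and Cd68, did not pass, and the list summed to 1.81% and 2.82% of reads in mutant 1 and mutant 2, versus 1.12% to 1.30% in wt. Of 9 markers of resident large peritoneal macrophages, Gata6 and Timd4, which define these cells, had 0 reads in each library, a count that allows up to 2.94 and 3.19 normalized counts in mutants 1 and 2 and 2.49 to 2.78 in wt. Of the same list Icam2 was present and lower in the mutants (log2 -0.99), and the other 4 tested genes, Garnl3 among them, did not pass. Of 9 tested neutrophil and monocyte markers, Ly6c2 (log2 -2.08) and Plac8 (-3.33) were lower in the mutants. The B cell list summed to 0.0197% and 0.0226% of reads in mutant 1 and mutant 2, versus 0.00941% to 0.0118% in the wt libraries, with 1 of 8 genes higher, Ighm, and none at 0 reads. Of 9 T and NK cell markers 2 had enough reads to test, Cd4, which was higher (log2 1.65), and Lck, which did not pass (log2 -1.27), and Cd3e, which defines T cells, had at most 1 read in any library. The share of Rn18s (18S ribosomal RNA) was 5.28% and 4.04% in mutant 1 and mutant 2, versus 0.599% to 1.64% in wt. The part of these markers and of Rn18s in the results below was not tested. In bulk RNA, fewer cells of a type and less RNA per cell cannot be told apart.

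Promoters of several of these genes carry the letters of a p53 half-site. RefSeq promoter windows (GRCm38.p6, from 250 bases before to 50 bases after a gene's start) were found for 26 of the 32 genes, in 36 windows, and not for Ddb2, Perp, Pmaip1, Trp53inp1, Xpc and Zmat3. An exact match to the p53 half-site, a 10-base consensus that reads the same on both strands, was present in 13 of the 36 windows (36.1%), against 8.36% of all 32851 windows of the same length. Those windows belonged to 12 genes: Aen, Bax, Ccng1, Cdkn1a, Ei24, Gtse1, Mdm2, Polk, Ppm1d, Rps27l, Sesn1 and Trp53. The Aen windows overlap and hold the same site, which is therefore counted more than once. Known p53 targets were chosen by name, so a share above that of all windows adds no separate evidence. The sequences below are the 250 bases before the start, on the strand of the gene, with half-sites in capitals. They are shown because Sesn1 was raised in the mutant while Cdkn1a, Ccng1 and Bax, which carry the same kind of match, were not. Fas, the other raised gene with a window, held 0 half-sites.
Sesn1, chr10:41887189-41887438, plus strand: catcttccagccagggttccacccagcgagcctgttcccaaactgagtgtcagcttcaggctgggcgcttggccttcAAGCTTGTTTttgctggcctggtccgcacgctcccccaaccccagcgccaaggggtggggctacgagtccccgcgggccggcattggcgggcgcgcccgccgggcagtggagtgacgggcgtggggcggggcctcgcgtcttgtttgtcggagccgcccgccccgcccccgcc
Cdkn1a, chr17:29090729-29090978, plus strand: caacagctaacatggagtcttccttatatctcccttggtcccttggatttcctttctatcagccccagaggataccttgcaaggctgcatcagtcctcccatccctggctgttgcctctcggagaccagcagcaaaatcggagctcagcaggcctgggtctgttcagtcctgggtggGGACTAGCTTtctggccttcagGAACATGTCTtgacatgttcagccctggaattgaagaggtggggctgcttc
Ccng1, chr11:40755287-40755536, minus strand: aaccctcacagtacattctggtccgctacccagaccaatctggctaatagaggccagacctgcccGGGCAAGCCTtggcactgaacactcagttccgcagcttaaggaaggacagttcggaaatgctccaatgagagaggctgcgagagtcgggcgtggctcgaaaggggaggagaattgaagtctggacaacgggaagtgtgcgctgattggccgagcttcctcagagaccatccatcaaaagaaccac
Bax, chr7:45466899-45467148, minus strand: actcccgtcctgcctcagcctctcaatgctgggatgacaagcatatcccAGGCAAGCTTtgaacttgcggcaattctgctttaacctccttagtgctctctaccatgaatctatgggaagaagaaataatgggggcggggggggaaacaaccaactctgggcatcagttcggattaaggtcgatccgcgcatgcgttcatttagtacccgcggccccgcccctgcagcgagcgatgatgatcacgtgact
Cdkn1a held 2 exact half-sites, at -73 to -64 and -51 to -42 relative to the upstream of its 2 RefSeq starts, with a spacer of 12 bases. The 10 bases directly after the second differ from the half-site consensus in their first letter only, so the exact search did not count them. The other Cdkn1a window held no match. Sesn1 held 1 at -173 to -164, before the downstream of its 2 RefSeq starts, and its other window held none. Half-sites stood at -185 to -176 in Ccng1 and at -201 to -192 in Bax. On either strand, TTTGAA, the core of the element through which the DREAM repressor complex silences cell cycle genes, was in 11.1% of the 36 windows and in 17.9% of all windows. In Bax a TTTGAA match overlaps the half-site. On either strand, the core of the interferon-stimulated response element (GAAA, any 2 bases, then GAAA) was in 1 of the 36 windows (2.78%), that of Plk2, and in 3.44% of all windows. A match is a description of letters and shows no binding.

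Among the 31 tested genes, 4 rose in the mutant and 0 fell. The RNA-binding protein gene Zmat3, the stress-induced metabolic regulator gene Sesn1, the death receptor gene Fas and the autophagy and apoptosis gene Trp53inp1 rose 1.43-fold to 1.94-fold. The other 27 did not pass, among them Cdkn1a, Mdm2 and Phlda3, which stood lower, and Ccng1 and Bax, which stood within a few percent of wt. The test was limma on log2(normalized count + 2), two-sided, with p-values adjusted by Benjamini-Hochberg over all 14977 genes tested and a threshold of 0.05. The 4 are 12.9% of the 31, beside 3.71% of all genes tested called higher, 4.89% called lower and 8.6% called in either direction. At an unadjusted limma p under 0.05, 7 of the 31 were higher and 9 lower, which is 22.6% and 29.0%, beside 13.9% and 17.7% of all genes. edgeR and limma-voom on the recovered reads also called 0 lower, and DESeq2 called 5 higher and 5 lower, beside 8.66% and 10.1% of the genes to which it gave an adjusted p. The median log2 fold change of the 31 was 0.01, beside 0.0003 over all genes. Scaled by total reads, it was -0.03, beside -0.04 over all genes.

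**Figure D1:**
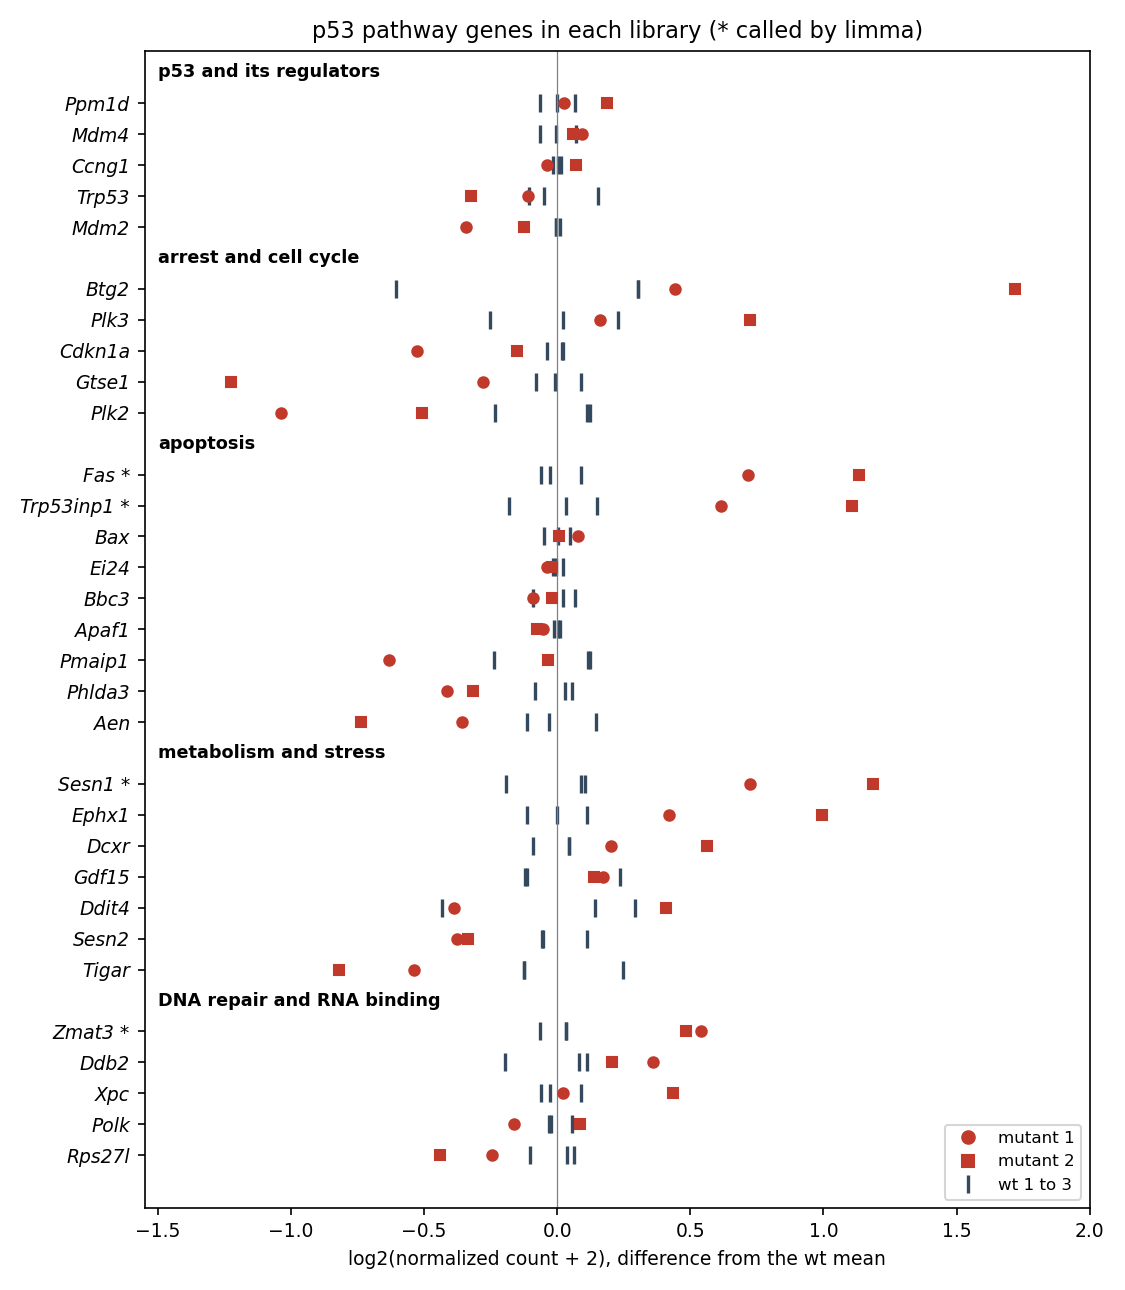
Each tested gene in each library, as the difference of log2(normalized count + 2) from the wt mean (x axis), grouped by role. Red circles and squares are mutants 1 and 2, dark ticks are wt 1 to 3, and the 4 called genes carry an asterisk. Mutant points of Zmat3, Sesn1, Fas and Trp53inp1 lie to the right of all wt ticks.

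Both mutant libraries lay above all 3 wt libraries for 8 of the 31 genes (25.8%) and below all of them for 12 (38.7%), and the groups overlapped for 11. Over all genes tested those shares were 24.3% above and 26.9% below, or 51.3% in either direction. The 8 above were Btg2, Fas, Trp53inp1, Sesn1, Dcxr, Ephx1, Ddb2 and Zmat3. The 12 below were Trp53, Mdm2, Cdkn1a, Plk2, Gtse1, Apaf1, Ei24, Aen, Phlda3, Sesn2, Tigar and Rps27l.

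Neither p53 itself nor its regulators passed the test. Trp53 (GENCODE M21 on GRCm38, chromosome 11, 69580359 to 69591873, plus strand) read 1855 and 1598 normalized counts in mutant 1 and mutant 2, versus 1860, 2227 and 1933 in wt 1 to 3. Both mutants were below all wt libraries, mutant 1 by very little. Its difference was -0.22 on the log2 scale (95% interval -0.48 to 0.05, limma adjusted p = 0.227), and reads of the known Trp53 pseudogene could be mixed with it. Mdm2, the ubiquitin ligase that degrades p53 and is itself a p53 target, read 3408 and 3960 in the mutants, versus 4304, 4306 and 4358 in wt. Its wt libraries were nearly identical, and both mutants lay below them, with a log2 fold change of -0.23 (95% interval -0.43 to -0.04, limma adjusted p = 0.114). Mdm4, the partner of MDM2 that blocks p53 activity, read 2678 and 2612 in the mutants, versus 2499, 2400.5 and 2635 in wt, and the groups overlapped (log2 0.08, 95% interval -0.10 to 0.25). The ratio of Mdm2 to Mdm4 normalized counts within a library was 1.27 and 1.52 in the mutants and 1.72, 1.79 and 1.65 in wt. Ppm1d, the phosphatase that turns the damage response off, averaged 529 ± 42.5 in the mutants (SD, n = 2) and 491 ± 22.5 in wt (SD, n = 3). Ccng1, a cyclin G gene and one of the steadiest p53 targets, averaged 5215 ± 285 in the mutants (SD, n = 2) and 5155 ± 50.7 in wt (SD, n = 3). Its log2 fold change of 0.02 had a 95% interval of -0.15 to 0.18. For all 5 of these genes the interval lay within 0.5 on the log2 scale, and 0 passed limma, edgeR, DESeq2 or limma-voom; at an unadjusted limma p under 0.05, 1 was lower, Mdm2.

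Genes of cell cycle arrest split by direction. Cdkn1a, which encodes the cyclin-dependent kinase inhibitor p21, read 5465 and 7098 normalized counts in mutant 1 and mutant 2, versus 7973, 7995 and 7670.1 in wt 1 to 3. Both mutants were below wt, mutant 1 by more (log2 -0.34, SE 0.12, limma adjusted p = 0.108). Plk2, a polo-like kinase gene induced by p53 and by serum, read 2914 and 4211 in the mutants, versus 6527, 5085 and 6462 in wt. That is a log2 fold change of -0.77 (SE 0.18, limma adjusted p = 0.0519), which DESeq2 called (adjusted p = 0.00366). Its relative Plk3, a stress kinase gene, read 325.9 and 483 in the mutants, versus 245, 342 and 296 in wt, and the groups overlapped. The ratio of Plk2 to Plk3 normalized counts was 8.94 and 8.72 in the mutants and 26.7, 14.9 and 21.9 in wt, so the groups did not overlap.

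Btg2 and Gtse1 differed from wt mainly in mutant 2. Btg2, an antiproliferative gene that is both a p53 target and an immediate early gene, read 2644 and 6413 in mutant 1 and mutant 2, versus 2398, 1277 and 2401 in wt 1 to 3. The difference of 1.08 on the log2 scale had a 95% interval of 0.05 to 2.12 and missed the threshold (limma adjusted p = 0.146). The immediate early transcription factor Egr1 read 2902 and 7945 in the same mutants, against 1093, 749 and 1059 in wt, and Fos read 10720.5 and 29048 in the mutants, versus 21291, 9644 and 21184 in wt. Btg2, Plk3 and Egr1 were thus all higher in mutant 2 than in mutant 1. Gtse1, a G2 and S phase gene whose product exports p53 from the nucleus, read 743 and 384 in the mutants, versus 894, 958 and 853 in wt (log2 -0.75, limma adjusted p = 0.111). The proliferation marker Mki67 read 15384 and 6795 and the mitotic cyclin Ccnb1 2228 and 1019 in mutant 1 and mutant 2, versus 15365 to 16433 and 2380.1 to 2691 in wt. In mutant 2 Gtse1, Mki67 and Ccnb1 all stood far below the lowest wt value. Of the 5 arrest and cell cycle genes of the pathway 0 passed limma, edgeR or limma-voom, DESeq2 called Plk2 lower, and 1 was higher and 3 lower at an unadjusted limma p under 0.05. The part of proliferation and of the immediate early genes in these values was not tested.

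In the apoptosis group, 2 of 9 tested genes rose, the death receptor gene and Trp53inp1, and the genes of the mitochondrial pathway did not pass. Fas (chromosome 19, 34290666 to 34327772, plus strand), which encodes the receptor for Fas ligand, read 220.2 and 294.5 normalized counts in mutant 1 and mutant 2, versus 142, 127 and 131 in wt 1 to 3. Even the lower mutant stood above every wt library, and the mean difference was 1.90-fold (log2 0.93, SE 0.16, limma adjusted p = 0.0248). Trp53inp1 (chromosome 4, 11156431 to 11174379, plus strand), whose product promotes p53-driven apoptosis and autophagy, read 2440 and 3435 in the mutants, versus 1629.8, 1404 and 1767 in wt. The groups did not overlap, and the difference was 1.82-fold (log2 0.86, SE 0.17, limma adjusted p = 0.0318).

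By contrast, Bax, the pore-forming effector of mitochondrial apoptosis, read 2230.2 and 2122 in the mutants, versus 2117, 2183 and 2043 in wt. Its log2 fold change of 0.04 had a 95% interval of -0.13 to 0.21. The BH3-only gene Bbc3 (PUMA) averaged 873 ± 30.2 in the mutants (SD, n = 2) and 909 ± 51.4 in wt (SD, n = 3), with an interval of -0.26 to 0.15. Apaf1, which builds the apoptosome, had a log2 fold change of -0.06 (interval -0.21 to 0.08), and Ei24, an endoplasmic reticulum protein gene of apoptosis and autophagy, one of -0.03 (interval -0.18 to 0.13). For these 4 genes a change of 0.5 or more on the log2 scale lay outside the interval. Pmaip1 (NOXA), another BH3-only gene, read 545 and 826 in the mutants, versus 916, 717 and 921 in wt, with mutant 1 below and mutant 2 within the wt range.

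Aen and Phlda3 stood below wt in both mutants without passing. Aen, an exonuclease gene of apoptosis, read 359 and 275 in mutant 1 and mutant 2, versus 426, 509.7 and 450.5 in wt 1 to 3 (log2 -0.55, limma adjusted p = 0.0703), and DESeq2 called it. Phlda3, which restrains AKT, read 257 and 275 in the mutants, versus 351, 324 and 357 in wt (log2 -0.37, limma adjusted p = 0.0802). Perp, a desmosomal p53 target, had 2 reads in mutant 1 and 0 in the other 4 libraries and was not tested. No difference in Perp was detectable at this depth. Of the 9 genes 0 fell by limma, edgeR or limma-voom, 2 were lower at an unadjusted limma p under 0.05, and DESeq2 called Aen lower.

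**Figure D2:**
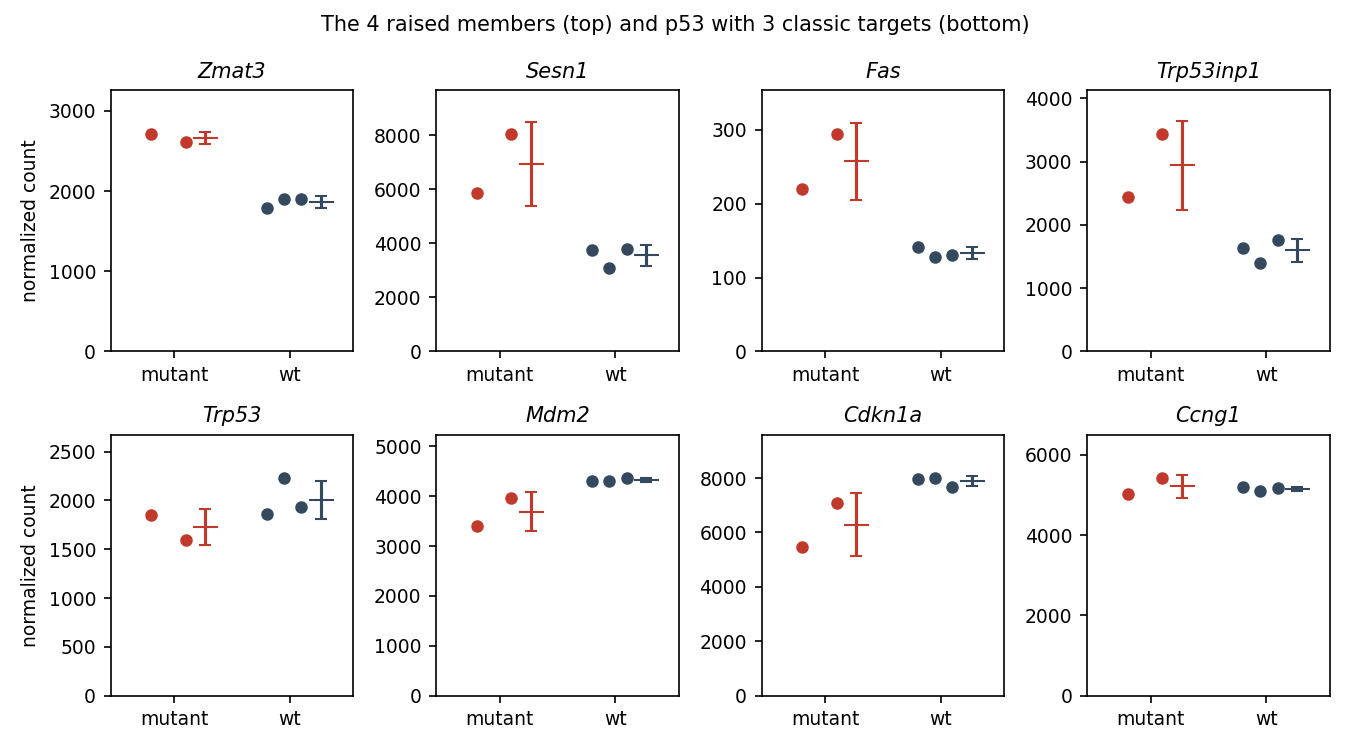
Normalized counts (y axes, from 0) of Zmat3, Sesn1, Fas and Trp53inp1 in the top row and of Trp53, Mdm2, Cdkn1a and Ccng1 in the bottom row, with mutant libraries in red on the left and wt in dark blue on the right. Points are libraries, and the line with bars is the mean and SD (n = 2 mutant, n = 3 wt). The groups are apart in the top row, and Ccng1 averages 5215 in mutant and 5155 in wt.

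In the metabolic group Sesn1 rose while its paralog Sesn2 did not. Sesn1 (chromosome 10, 41809935 to 41908424, plus strand) encodes a sestrin, a stress protein that restrains mTORC1 and peroxides. It read 5849 and 8048 normalized counts in mutant 1 and mutant 2, versus 3767, 3094 and 3803 in wt 1 to 3. The 1.94-fold difference (log2 0.95, SE 0.16, limma adjusted p = 0.0212) was the highest among the 4 called genes. Sesn2, the sestrin gene that is also an ATF4 target, read 946 and 974 in the mutants, versus 1181, 1329.9 and 1185 in wt. Both mutants were below wt by a similar amount (log2 -0.36, SE 0.09, limma adjusted p = 0.0539), and DESeq2 called the gene lower (adjusted p = 0.0182). The ratio of Sesn1 to Sesn2 normalized counts was 6.18 and 8.26 in the mutants and 3.19, 2.33 and 3.21 in wt. This ratio does not depend on how libraries are scaled. Its groups had to be apart, because both mutants lay above wt for Sesn1 and below wt for Sesn2, so it adds no separate evidence.

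Tigar, a fructose bisphosphatase gene that diverts sugar from glycolysis, read 322 and 265 in mutant 1 and mutant 2, versus 430.3, 556 and 430.1 in wt 1 to 3. At -0.68 on the log2 scale (SE 0.16) it missed the threshold by little (limma adjusted p = 0.0508) and was called by DESeq2 (adjusted p = 0.00547). The epoxide hydrolase gene Ephx1 read 725 and 1081 in the mutants, versus 502, 586 and 542 in wt (log2 0.71, limma adjusted p = 0.0591), and the carbonyl reductase gene Dcxr 987 and 1267 in the mutants, versus 885, 807 and 886 in wt (log2 0.38, limma adjusted p = 0.0989). For both, mutant 2 was the higher mutant and the groups did not overlap. Gdf15, a stress cytokine gene, averaged 2829.8 ± 46.1 in the mutants (SD, n = 2) and 2559.8 ± 379 in wt (SD, n = 3). Ddit4, an mTORC1 inhibitor gene, read 137 and 239 in the mutants, versus 221, 133 and 198 in wt, and its interval of -0.72 to 0.75 left the direction undetermined. Beside Sesn2, Ddit4 and Gdf15, the stress factor Atf4 read 4893 and 3749 and Ddit3 434 and 258 in mutant 1 and mutant 2, versus 5219 to 6859 and 618 to 946 in wt, both below wt in each mutant without passing (limma adjusted p = 0.141 and 0.0558). Thus 1 of the 7 metabolic and stress genes rose, and 0 fell by limma, edgeR or limma-voom. At an unadjusted limma p under 0.05, 3 were higher (Sesn1, Dcxr and Ephx1) and 2 lower, and DESeq2 called Sesn1 and Ephx1 higher and Sesn2 and Tigar lower.

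Zmat3 was the one riser among the repair and RNA-binding genes. Zmat3 (chromosome 3, 32334792 to 32366014, minus strand), a zinc finger protein gene that acts on splicing and mRNA stability downstream of p53, read 2713 and 2609 normalized counts in mutant 1 and mutant 2, versus 1783, 1907 and 1905 in wt 1 to 3. Both groups were tight, and its log2 fold change of 0.51 (SE 0.07, limma adjusted p = 0.0116) had the lowest adjusted p of the 31 genes although Sesn1, Fas and Trp53inp1 had higher fold changes. The ratio of Zmat3 to Cdkn1a normalized counts was 0.496 and 0.368 in the mutants and 0.224, 0.239 and 0.248 in wt. The damage recognition genes Xpc (log2 0.23, limma adjusted p = 0.294) and Ddb2 (log2 0.28, limma adjusted p = 0.276) of nucleotide excision repair and the translesion polymerase gene Polk (log2 -0.04, interval -0.28 to 0.21) did not pass. Xpc read 684 and 911 in the mutants, versus 659.9, 645 and 716 in wt, so mutant 1 lay within the wt range. Rps27l, a ribosomal protein gene induced by p53, averaged 1876 ± 178 in the mutants (SD, n = 2) and 2378 ± 144 in wt (SD, n = 3; log2 -0.34, limma adjusted p = 0.069), and DESeq2 called it lower. Rps27l has a near copy in Rps27, so its value is uncertain. None of the 5 fell by limma, edgeR or limma-voom, and Rps27l was the 1 gene lower at an unadjusted limma p under 0.05.

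**Figure D3:**
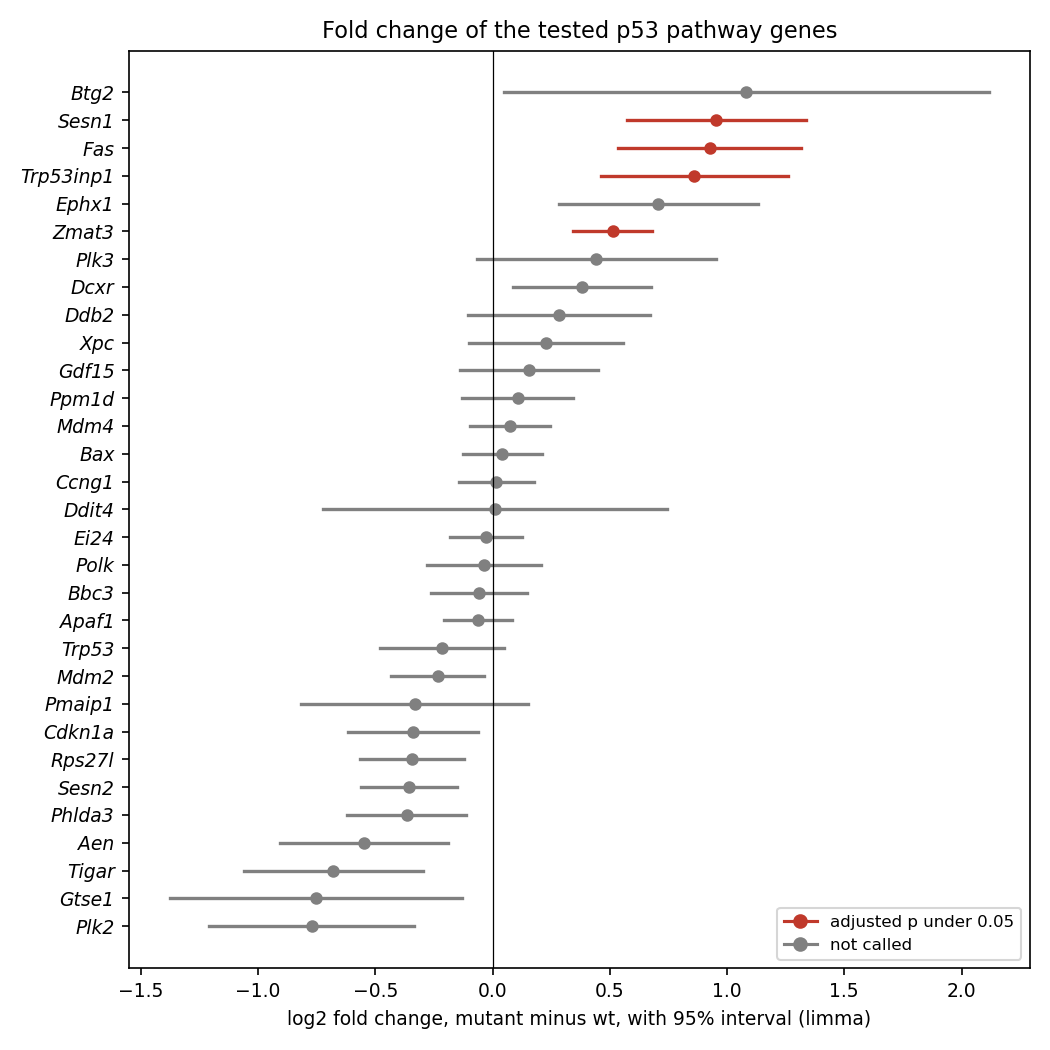
Log2 fold change of each tested gene, mutant minus wt, with its 95% interval from limma (x axis), sorted by fold change. The 4 called genes are red. Btg2 has the highest fold change, 1.08, but an interval of 0.05 to 2.12, whereas Ccng1, Bax and Ei24 have intervals close to 0.

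Levels per length put the same genes in another order. Per kilobase of exon, Rps27l had the highest level, at 2299 normalized counts in the mutants and 2914 in wt, followed by Cdkn1a (1768 in the mutants and 2218 in wt). Sesn1 stood at 1745 in the mutants and 893 in wt, so it was above Ccng1 in the mutants (1485) and below it in wt (1468). Ddb2 had the lowest level per kilobase among the tested genes, at 49.2 in the mutants and 40.5 in wt, and Fas was also low, at 125 in the mutants and 64.6 in wt. Ddb2 shares 23.8% of its annotated exon bases with Acp2 on the opposite strand. Exon overlaps of Cdkn1a (7.68%), Ei24 (6.66%), Tigar (3.34%) and Plk3 (3.32%) with genes on the opposite strand were smaller, and Bax (12.2%) and Ephx1 (3.69%) overlap a gene on their own strand. Sources used here do not give the strand setting of the counting, so reads from such overlaps could not be assigned.

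The mutant libraries differed from each other by more than 0.5 on the log2 scale for 7 of the 31 genes, or 22.6%, beside 23.6% of all genes tested. Btg2 (1.28), Ddit4 (0.80), Pmaip1 (0.60), Ephx1 (0.58), Plk3 (0.56) and Plk2 (0.53) were higher in mutant 2, and Gtse1 (-0.95) was lower there. Zmat3 differed by -0.06 between the mutants, against 0.46 for Sesn1, 0.42 for Fas and 0.49 for Trp53inp1, which were all higher in mutant 2. With 1 mutant left out, the spread is taken from wt, so only log2 fold changes are given for these fits. Without mutant 2 they were -0.53 for Cdkn1a, -0.34 for Mdm2, -1.04 for Plk2, -0.63 for Pmaip1 and -0.11 for Trp53. Without mutant 1 they were -0.15 for Cdkn1a, -0.13 for Mdm2, -0.51 for Plk2, -0.03 for Pmaip1 and -0.32 for Trp53.

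The calls rest on few libraries. Each of the 4 risers kept its direction with every library left out in turn, but leaving out any 1 wt library ended the call: limma adjusted p was 0.0517 to 0.0886 for Zmat3, 0.0791 to 0.0971 for Sesn1, 0.0974 to 0.12 for Fas and 0.101 to 0.136 for Trp53inp1. With mutant 1 left out, log2 fold changes were 0.48 for Zmat3, 1.18 for Sesn1, 1.13 for Fas and 1.11 for Trp53inp1. With mutant 2 left out, they were 0.54, 0.72, 0.72 and 0.61. All 4 risers were called by edgeR, DESeq2 and limma-voom. With age in weeks as a further term none was called (limma adjusted p = 0.454 to 0.607), while their log2 fold changes were 0.66 to 0.96 for Trp53inp1, Sesn1 and Fas and 0.47 for Zmat3. Without wt 1, which leaves females only, the log2 fold changes were 0.48 for Zmat3, 1.00 for Sesn1, 0.97 for Fas and 0.88 for Trp53inp1.

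In the authors' deposited table, where fold changes run wt over mutant, 5 of the 32 genes are called higher in the mutant at an adjusted p under 0.05 (beside 3.51% of all rows) and 3 lower (beside 3.66%). The 5 are the same 4 and Ephx1, and the 3 are Plk2, Rps27l and Tigar. Those shares are taken over all 30478 rows, of which 14977 had enough reads for the limma test, whereas 31 of the 32 members did. They are thus not a like background. The authors' deposited table gives -0.52 for Zmat3, -0.81 for Sesn1, -0.79 for Fas and -0.75 for Trp53inp1.

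Other genes of the pathway were read from lists chosen for their roles. Of 15 tested DNA damage kinases and mediators, 0 rose and 1 fell, and the list median was -0.38. The gene that fell was Hipk2, a kinase that phosphorylates p53 in severe damage, at 2376 and 2465 normalized counts in mutant 1 and mutant 2 versus 3308, 2878 and 3265 in wt 1 to 3 (log2 -0.38, limma adjusted p = 0.0464; 0.0632 to 0.179 without 1 wt library). Atm read 1235 and 954 in the mutants, versus 1434 to 1465 in wt, and Chek1, the replication checkpoint kinase gene, 262 and 81.9 in the mutants, versus 371 to 424 in wt. Neither passed. At an unadjusted limma p under 0.05, 11 of the 15 were lower (73.3%) and 0 higher, beside 17.7% and 13.9% of all genes.

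Of 20 tested p53 modifiers and relatives, 1 rose and 2 fell, with a median of 0.03. Daxx, a PML body protein gene that links p53 and MDM2 and is inducible by interferon, fell to 1095 and 1189.7 in the mutants, versus 2446, 2486 and 2394 in wt (log2 -1.10, limma adjusted p = 0.000586). Ppp1r13b, which encodes a cofactor that directs p53 to apoptotic genes, fell by 0.48 and the methyltransferase gene Setd7 rose by 0.63 on the log2 scale. Both calls were lost without any 1 wt library (limma adjusted p = 0.084 to 0.136), while that of Daxx was kept there and missed with age as a further term (limma adjusted p = 0.0763).

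Of 31 further p53 targets tested, 3 rose and 3 fell, with a median of -0.10. The autophagy gene Dram1 rose by 0.56, and Abhd4, a lipid hydrolase gene, by 0.69 on the log2 scale. Stem cell factor (Kitl) fell to 761 and 437 normalized counts in mutant 1 and mutant 2, versus 1401, 1446 and 1389 in wt 1 to 3, and the ferrireductase gene Steap3 fell by 0.59. The calls of these 4 were lost with any 1 wt library left out (limma adjusted p = 0.0761 to 0.143). The other risen gene was Casp6 (log2 0.58, limma adjusted p = 0.0497). It lost the call with any 1 wt library left out (limma adjusted p = 0.134 to 0.174), and its log2 fold change without mutant 2 was 0.41. The damage-induced genes Gadd45a (log2 0.25), Rrm2b (-0.08) and Ercc5 (0.21) did not pass.

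In the BCL-2 family and caspase list 1 of 20 tested genes fell, Bak1, the partner of Bax in pore formation, by 0.67 on the log2 scale (limma adjusted p = 0.0248; 0.0859 to 0.126 without 1 wt library), and 0 rose. The list does not hold Casp6, a caspase gene that was called higher among the further p53 targets above. Casp8 (-0.12) and Mcl1 (0.13) did not pass. At an unadjusted limma p under 0.05, 2 of the 20 were higher and 5 lower (10% and 25%), beside 13.9% and 17.7% of all genes. DESeq2 called Birc3 and Bmf higher and Bak1, Cycs and Bik lower.

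Cell cycle genes that p53 is known to repress through p21 and DREAM had a median log2 fold change of -0.76 over 24 tested genes, 23 of them negative. By limma, edgeR and limma-voom 0 were called, and DESeq2 called Plk1, Ube2c and Mybl2 lower. At an unadjusted limma p under 0.05, 15 of the 24 were lower (62.5%), beside 17.7% of all genes. Relative to wt, mutant 1 had a median of -0.20 over the 24 genes and mutant 2 one of -1.29, while the Cdkn1a values were -0.53 and -0.15. What set these medians was not tested.

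Among 18 ATF4 targets tested, Nupr1 fell (log2 -1.17, limma adjusted p = 0.0381; 0.115 to 0.143 without 1 wt library) and 0 rose, with a median of -1.02. At an unadjusted limma p under 0.05, 13 of the 18 were lower (72.2%) and 0 higher, beside 17.7% and 13.9% of all genes. Of 22 immediate early genes 3 rose, Egr1, Egr3 and Ier2, and their median stood at -0.27 in mutant 1 and at 0.89 in mutant 2. All 3 lost the call with any 1 wt library left out (limma adjusted p = 0.101 to 0.155). Of 9 glucocorticoid targets 0 were called by limma, edgeR or limma-voom, DESeq2 called Cebpd higher and Fkbp5 lower, and 2 were higher and 2 lower at an unadjusted limma p under 0.05. By comparison, 28 of 29 interferon-stimulated genes fell, with a median of -1.93 for mutant 1 and -2.01 for mutant 2. Over the 31 tested p53 pathway genes mutant 1 had a median of -0.04 and mutant 2 of 0.06, and those of the wt libraries ranged from -0.015 to 0.021. The wt libraries make up the mean they are set against, which draws their medians toward 0. Their range is thus not a like measure for the mutants.

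**Figure D4:**
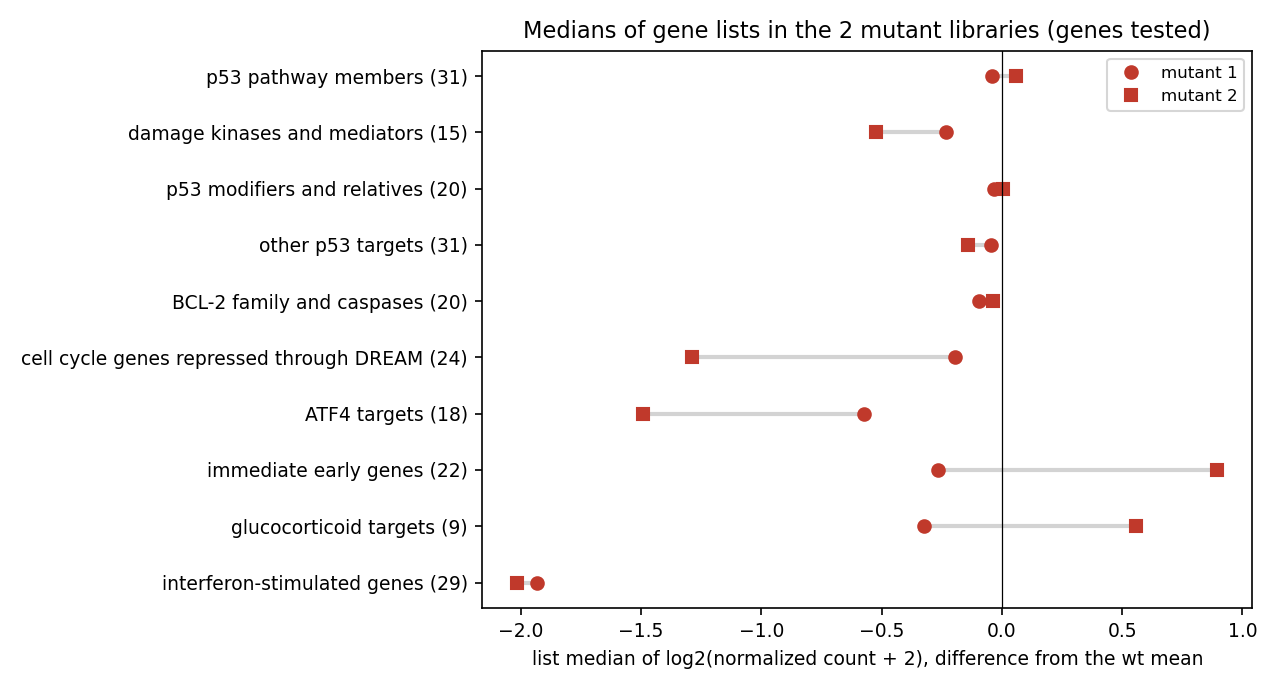
Median difference from the wt mean of log2(normalized count + 2) for each gene list (x axis) in mutant 1 (circles) and mutant 2 (squares), with the number of genes tested in brackets. The p53 pathway genes lie near 0 in both mutants, the cell cycle and ATF4 lists lie lower in mutant 2 than in mutant 1, and the interferon-stimulated genes lie near -2 in both.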

How the data were processed

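Messenger RNA of 5 libraries of sorted mouse peritoneal macrophages was analysed, 2 mutant and 3 wt, grouped by the labels' titles. STAR, featureCounts (Subread), DESeq 1.6.1 and build mm10 are named in the submitters' processing notes, with parameters not given in the sources used here. In the deposited signal columns every gene's reads were divided by 1 size factor per library, judged from the values: 100% of values were whole multiples of 1 read within 0.001 reads. The authors' deposited log2 fold change (wt over mutant by sign) and deposited p-value and adjusted p-value were copied as given, and the deposited percent GC column was not used. The table lists genes of chromosomes 1 to 19, and genes elsewhere were not analysed here. The authors' overall mean per gene, deposited beside the group means, is above 0 in all 3266 rows where these 5 libraries hold 0 reads, so it takes in libraries not analysed here.

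Genes at 10 or more normalized counts in at least 2 libraries were tested with limma 3.58.1 (R 4.3.3, intensity trend) on log2(normalized count + 2), which understates changes of low genes. Fold changes are mutant minus wt, and intervals are limma's 95% intervals. edgeR 4.0.16, DESeq2 1.42.0 and limma-voom were run on the recovered reads, where edgeR called 642 genes higher and 669 lower. The limma step was tested on simulated data. Replicates differed beyond sampling noise (mean chi-square per gene 14.3 to 61.6), so each library counted as 1 sample; animals are not named in the labels, so p-values measure only how much these samples vary. A count of 0 allows up to 3 reads, covering counting error only. Genes and lists were chosen with earlier results of these data known. Values per library were given by a fixed rule for called genes, Trp53, Mdm2, Mdm4, Cdkn1a, the highest and lowest levels per kilobase, the targeted genes and comparison genes; other members were given values after they were seen, and from each list at most the 4 called genes of lowest p, plus Casp6 and some uncalled genes picked after their values were seen; 1 listed gene that was called is not reported here by name. Positions are those of GENCODE M21, matched by identifier, and lengths per kilobase are those of the deposited table.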

Additional observations from a re-analysis of the deposited data

How the results depend on the processing

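Over all genes, 556 were called higher and 732 lower. DESeq2 called 1121 higher and 1308 lower. The fit with the replicate block called 6 and 75, and the fit with age 3 and 64. With 1 library left out, calls ranged from 29 to 2062 higher and from 173 to 2929 lower. The highest numbers came without mutant 1, where a lone mutant is assumed to vary like wt. Of the p53 pathway genes, 4 were called higher and 0 lower. The replicate block and the age term each gave 0 higher, and leaving out 1 library gave 0 to 9 higher and 0 to 7 lower. Lower calls numbered 2 with a filter of 50 normalized counts, 2 with total-read scaling, 2 with a robust prior and 5 by DESeq2. These were Sesn2 and Tigar, then Plk2 and Sesn2, then Sesn2 and Tigar, then Aen, Plk2, Rps27l, Sesn2 and Tigar. The 4 genes called higher were the same with a pseudocount of 0.5 or 8, without a filter, with the filter of 50, with TMM or total-read scaling, with the robust prior and by edgeR and limma-voom. DESeq2 added Ephx1. The median log2 fold change of the members was -0.0577 with age as a term and ranged from -0.0401 to 0.0576 with 1 library left out, and the cause was not tested. No called member reversed its direction in any alternative. Replicate numbers are shared by label only. The correlation of deviations from the group means was -0.23 for libraries numbered 1 and -0.36 for those numbered 2. With 2 mutants these deviations mirror each other, so the correlations cannot decide whether the numbers pair the libraries. The block leaves few degrees of freedom.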
